A study of Homo sapiens with 4 samples.

Results

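Keratins are the intermediate filament proteins of epithelial cells, and 10 keratin genes were followed in 2 established cell lines. Ishikawa cells come from a human endometrial adenocarcinoma and T-47D cells from a human breast carcinoma. The genes are KRT5, KRT7, KRT8, KRT10, KRT13, KRT17, KRT18, KRT19, KRT23 and KRT81. They were taken by symbol from the feature lists of both lines, which hold 33538 shared features and 55 keratin genes in all. Each line was given 10 nM 17β-estradiol (E2), the main natural estrogen, for 2, 4 or 8 h, and vehicle-treated cells stood for 0 h. The study's methods name DMSO as the vehicle in other assays, but do not name the vehicle of the single-cell RNA-seq. Cells of the 4 time points of a line received MULTI-seq tags, DNA barcodes anchored in the membrane that record the time point. They were mixed and run as a single droplet library for 3′ single-cell RNA-seq. A pool below is the set of cells of 1 line and 1 time point. Both lines were routinely grown with fetal bovine serum. Per the study's methods, they were moved 5 days before E2 to medium depleted of hormones (no phenol red, serum stripped with charcoal), in which vehicle and E2 were given. How many cultures stood behind a pool is not given, and cells were called by time point only. No comparison therefore has a replicate, no test is given, and all 95% intervals cover counting error only.

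A keratin filament is built from pairs that join an acidic type I keratin to a basic type II keratin. KRT8 (type II) with KRT18 (type I) is the pair of simple, single-layered epithelia, KRT7 (type II) and KRT19 (type I) accompany it in ducts and glands, and KRT5 (type II) marks the basal layer of stratified epithelia, where KRT17 (type I) appears in some basal cells and after injury. KRT10 and KRT13 are type I keratins of differentiating epidermis and of internal stratified linings, KRT23 is a type I keratin, and KRT81 is a type II keratin of hair. The breast duct is the classic tissue in which KRT8, KRT18 and KRT19 identify luminal cells and KRT5 and KRT17 identify basal cells.

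The pools held 776 to 1480 kept cells in Ishikawa and 553 to 1525 in T-47D, with 15305038 to 30994433 and 12927799 to 33175309 UMIs per pool (unique molecular identifiers, each standing for 1 captured transcript). Median depth was 19122 to 21436 UMIs per cell in Ishikawa and 20677 to 22576 in T-47D, while the median mitochondrial share was 3.96% to 4.27% in Ishikawa and 10.0% to 10.4% in T-47D. Before the limits on cells were applied, the Ishikawa 0 h pool, the base of every Ishikawa change, stood apart from the later pools. It kept 776 of 2032 called cells, against 1480 of 2651, 892 of 1701 and 1465 of 2693, and its called cells had a median of 10484 UMIs (16193 to 18148 later) and 7.29% mitochondrial UMIs (4.63% to 4.95% later). The 6 general epithelial markers, KRT8 and KRT18 among them, were all at 10 or more CPM (UMIs per 1000000 UMIs of the pool) in both lines. All 5 mammary luminal markers were at 10 CPM or more in T-47D and 0 of 5 in Ishikawa. Of the 5 basal markers, 2 reached 10 CPM in Ishikawa and 0 in T-47D. The 2 were KRT5 and KRT17 themselves, and the others, TP63, KRT14 and COL17A1, were under 10 CPM in both lines. Immune markers summed to at most 2.58 CPM in any pool, endothelial markers to at most 1.44 CPM, fibroblast markers to at most 30.9 CPM, and the fibroblast marker PDGFRB had 0 UMIs in both lines. The Ishikawa matrix also counts a GFP reporter, at 3.17% to 4.67% of its UMIs. The 2 matrices shared 80 barcodes, 5 of them among kept cells.

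The 10 genes lie in the keratin clusters of chromosomes 12 and 17. On GRCh38.p14 (RefSeq), KRT7 occupies chr12:52233243-52255853, KRT81 chr12:52285913-52291534, KRT5 chr12:52514575-52520394, KRT8 chr12:52897191-52949860 and KRT18, the type I gene inside the type II cluster, chr12:52948855-52952906. KRT10 occupies chr17:40818117-40822614, KRT23 chr17:40922700-40937646, KRT13 chr17:41500981-41505612, KRT19 chr17:41523617-41528308 and KRT17 chr17:41619442-41624575. The annotated spans of KRT8 and KRT18 overlap by 1006 bases, and that of KRT81 lies wholly inside KRT86. Reads can also be shared with near-identical copies, such as KRT86 for KRT81, KRT14 and KRT16 for KRT17, and the pseudogenes of KRT8 and KRT18. Whether counting used strand is not given in the sources used here. The levels of KRT8, KRT17, KRT18 and KRT81 are uncertain to that extent.

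The promoter table matched KRT5, KRT8 and KRT10. KRT5 is shown because its counts separated the lines, and KRT10 because it was the keratin that varied least between cells for its level. Each run is the 250 bases before the gene's start on the minus strand (chr12:52520395-52520644 for KRT5 and chr17:40822615-40822864 for KRT10), written 5′ to 3′ with motif matches in capitals.

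KRT5: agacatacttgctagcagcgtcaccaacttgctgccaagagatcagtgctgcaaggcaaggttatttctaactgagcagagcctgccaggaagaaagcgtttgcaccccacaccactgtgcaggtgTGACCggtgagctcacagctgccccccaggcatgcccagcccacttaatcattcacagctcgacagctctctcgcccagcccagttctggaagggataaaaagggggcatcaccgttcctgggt

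KRT10: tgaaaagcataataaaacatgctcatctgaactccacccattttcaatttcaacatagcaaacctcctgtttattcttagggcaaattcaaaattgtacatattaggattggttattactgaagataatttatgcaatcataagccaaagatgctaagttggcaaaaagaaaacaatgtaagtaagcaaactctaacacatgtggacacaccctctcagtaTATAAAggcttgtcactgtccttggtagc

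The capitals mark a single arm of the estrogen response element (GGTCA on the opposite strand) 124 to 120 bases before the start of KRT5 and a TATA motif (TATAAA) 29 to 24 bases before the start of KRT10. Over both strands, the single arm was found in 32.6% of 35116 promoter windows of the same length and the TATA motif in 10.7%. The full element (GGTCANNNTGACC, which contains the arm on both strands) was in 0.0399% of all windows, an AP-1 motif (TGANTCA) in 6.57% and an Sp1 motif (GGGCGG) in 42.6%, and these 3 were in neither of the printed windows. The table's window for KRT8 starts inside the annotated gene and is not printed. These matches describe letters and no binding was measured here.

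Without E2 the lines carried the same simple-epithelial core but different accessory keratins. In the 0 h T-47D pool, KRT19 was the most abundant keratin at 4733 CPM, the rank 19 of all 33538 features, followed by KRT18 at 3114 CPM and KRT8 at 2631 CPM. In the 0 h Ishikawa pool the order was KRT18 at 2004 CPM, KRT8 at 1737 CPM, KRT17 at 486 CPM and KRT19 at 415 CPM. A 3′ UMI is counted once per transcript whatever its length, so these levels can be set beside each other without a length correction. KRT10 and KRT7 followed in T-47D at 365 CPM (359 to 372) and 369 CPM (362 to 375), whose intervals overlapped. In Ishikawa KRT10 was at 254 CPM and KRT7 at 83.9 CPM. KRT5 came next in Ishikawa at 28.3 CPM (25.7 to 31.1), and KRT23 at 57.3 CPM in T-47D. KRT13 and KRT81 were near or under 2 CPM in both lines at 0 h, with overlapping intervals in Ishikawa.

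KRT17 and KRT5 separated the lines in one direction and KRT19, KRT23 and KRT7 in the other. KRT17 was 241-fold higher in Ishikawa (189 to 311), with 7439 UMIs against 67. KRT5 had 433 UMIs in the Ishikawa 0 h pool and 0 in all 4 T-47D pools. With 3 UMIs as the floor of the T-47D pool it was 313-fold higher in Ishikawa (106 to 1523). KRT19 was 11.4-fold higher in T-47D (11.1 to 11.7), KRT23 5.74-fold (4.86 to 6.81) and KRT7 4.40-fold (4.15 to 4.66). KRT18 and KRT8 were 1.55-fold and 1.52-fold higher in T-47D, and KRT10 1.44-fold (1.39 to 1.49). With 1.5-fold as the limit, 7 of the 8 keratins with a mean of at least 10 CPM differed between the 0 h pools, where 56.8% of all 8023 genes tested did. The median log2 difference (T-47D over Ishikawa) of all those genes was -0.15, so the smaller of these ratios depend on how the lines are scaled. The lines were separate libraries, and line and library cannot be told apart.

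**Figure D1:**
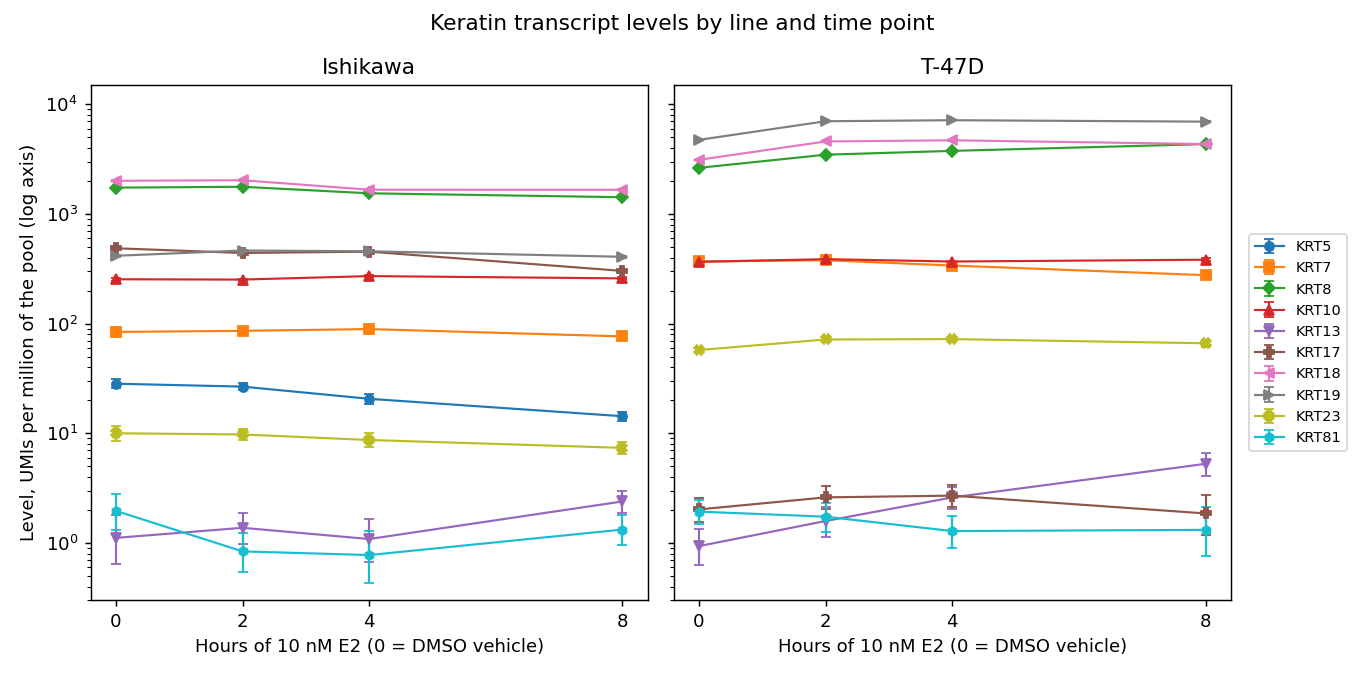
Levels of the keratins in CPM (log axis) against hours of 10 nM E2, with Ishikawa on the left and T-47D on the right; points are single pools and bars 95% counting intervals. KRT5 is absent from the T-47D panel, where it had 0 UMIs, and KRT19 runs from 4733 to 6940 CPM in T-47D but stays between 406 and 464 CPM in Ishikawa.

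The whole keratin family took a larger share of T-47D transcripts, and that share was larger in every E2 pool. All 55 keratin genes together made up 1.14%, 1.60%, 1.65% and 1.64% of T-47D UMIs at 0, 2, 4 and 8 h. The same sum was 0.511%, 0.516%, 0.459% and 0.423% of Ishikawa UMIs. The 10 keratins described here held at least 98.1% of keratin UMIs in every pool. In T-47D the 3 most abundant, KRT19, KRT18 and KRT8, held 92.3% at 0 h and 95.1% at 8 h, so the T-47D sum mostly reflects these 3. Type I transcripts outnumbered type II transcripts everywhere, although the proteins pair in equal amounts. In Ishikawa the ratio of type I to type II transcripts was between 1.63 and 1.66 at the 4 time points. In T-47D it was 2.70 at 0 h, 3.08 at 2 h, 2.97 at 4 h and 2.52 (2.50 to 2.55) at 8 h.

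In T-47D the transcripts of the luminal keratins KRT8, KRT18 and KRT19 were more abundant at every E2 time point than at 0 h. KRT19, the smallest keratin, had 4733, 6998, 7150 and 6940 CPM at 0, 2, 4 and 8 h. The level was thus reached by 2 h and held, with log2 changes of 0.56, 0.60 and 0.55. KRT18 had 3114, 4576, 4691 and 4336 CPM, with log2 changes of 0.56, 0.59 and 0.48. KRT8, its type II partner, had 2631, 3467, 3756 and 4332 CPM, with log2 changes of 0.40, 0.51 and 0.72. KRT8 went on increasing from pool to pool while KRT18 was lower at 8 h than at 4 h, and the 4 levels of KRT8 had intervals that did not overlap. KRT8 transcripts per KRT18 transcript were 0.845 (0.837 to 0.853) at 0 h, 0.758 (0.751 to 0.764) at 2 h, 0.801 (0.794 to 0.807) at 4 h and 0.999 (0.987 to 1.01) at 8 h. At 8 h the levels of the pair were equal within counting error.

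Under the 1.5-fold rule, on log2(CPM + 1) and for genes with a mean of at least 10 CPM, 0 of 6 T-47D keratins had changed at 2 h, where 1.64% of all 7440 genes tested had. At 4 h KRT18 and KRT19 rose past the limit (2 of 6, background 1.69%), and at 8 h KRT8 did (1 of 6, background 3.06%). KRT18 and KRT19 lay close to the limit of 0.58 at all 3 times, so which time point passed rests on small differences. The median log2 change of the 6 keratins was 0.36, 0.42 and 0.34, against 0.01, -0.01 and 0.01 over all genes tested. The 3 changes share the 0 h pool as their base, so an error in that pool would enter all of them.

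**Figure D2:**
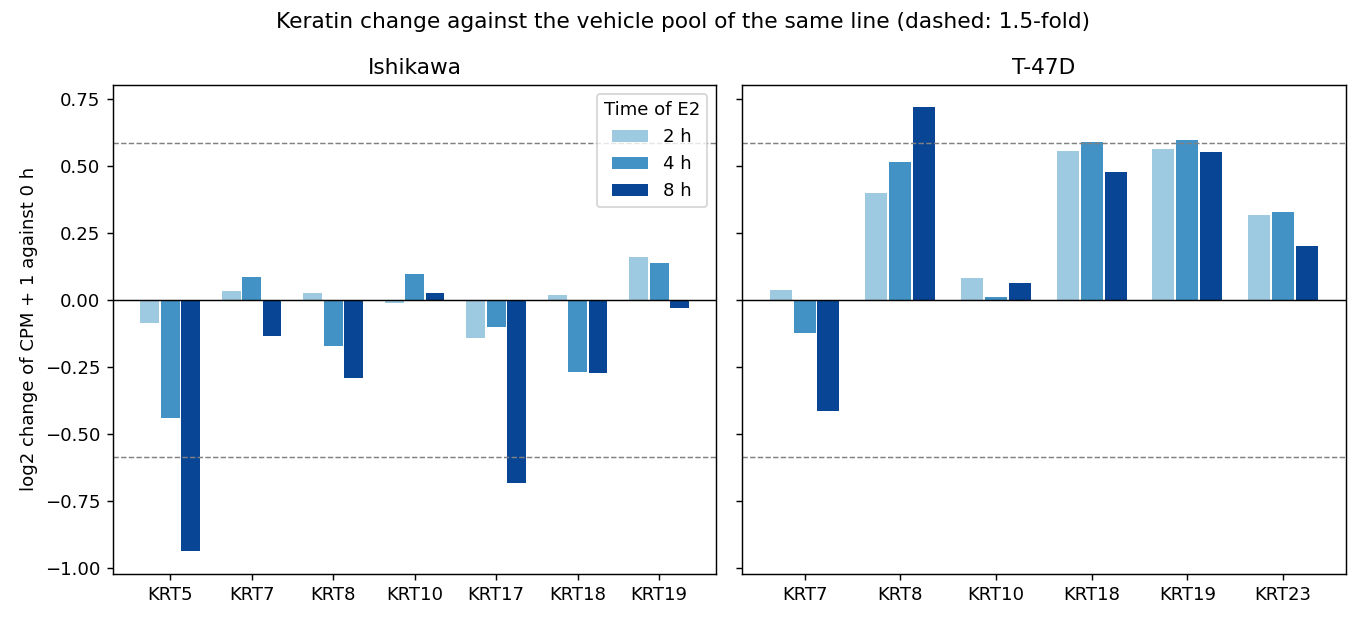
Change of each keratin with a mean of at least 10 CPM, as log2 of CPM + 1 over the 0 h pool of the same line, at 2, 4 and 8 h of E2; dashed lines mark 1.5-fold, and each bar is 1 pool against 1 pool. KRT8, KRT18 and KRT19 are above 0 at each time in T-47D, and KRT5 and KRT17 reach -0.94 and -0.68 at 8 h in Ishikawa.

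The difference in T-47D was spread over the cells and was not carried by a few of them. To compare cells at equal depth, each cell was thinned at random to 14495 UMIs (12539 in Ishikawa), the depth of the 10th percentile of kept cells, and shallower cells were left out. After thinning, all 1331 T-47D cells at 0 h and all 519 at 8 h had at least 1 UMI of KRT8, KRT18 and KRT19. The median cell held 60 KRT19 UMIs at 0 h and 96, 99 and 99 at 2, 4 and 8 h. The share of cells above the 0 h median was 49.3% at 0 h and 85.4% (83.2% to 87.4%), 86.4% and 88.1% (84.9% to 90.7%) afterwards. For KRT8 the share above its 0 h median of 33 UMIs was 71.7%, 78.1% and 84.0% (80.6% to 87.1%) at 2, 4 and 8 h. For KRT18 the share above 39 UMIs was 49.7% at 0 h and 78.4%, 78.6% and 72.6% afterwards. The low end of the range moved as well. The 10th percentile of KRT18 was 14.9 UMIs per 10000 at 0 h and 20.8, 21.9 and 19.1 after E2. The coefficient of variation (CV, the standard deviation over the mean) of KRT19 was 0.507 at 0 h and 0.410, 0.402 and 0.384 after E2, while that of KRT18 was 0.564, 0.544, 0.509 and 0.553.

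**Figure D3:**
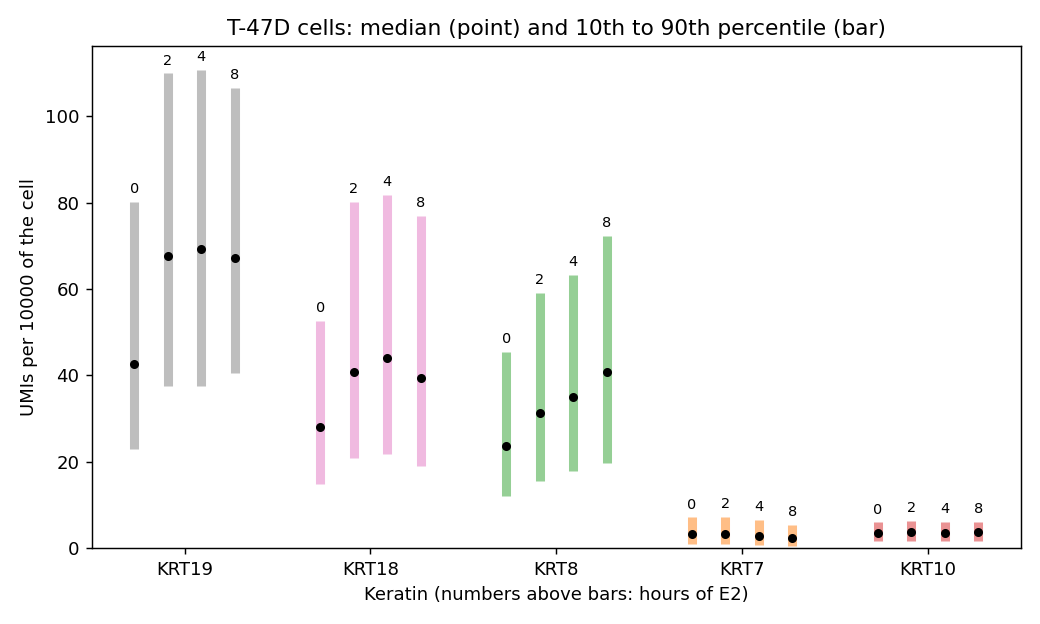
UMIs per 10000 in T-47D cells for 5 keratins, with the median as a point, the 10th to 90th percentile as a bar and the hours of E2 above each bar. The medians of KRT19 (42.7 at 0 h, 67.6 at 2 h), KRT18 and KRT8 sit higher at all 3 E2 times, and those of KRT10 lie between 3.47 and 3.66.

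The other T-47D keratins stayed inside the fold limit or under the minimum. KRT7 was at 369, 378, 338 and 276 CPM, a log2 change of -0.42 at 8 h that stayed inside the limit, and the share of cells above its 0 h median of 4 UMIs was 49.2% at 0 h and 33.1% (29.1% to 37.4%) at 8 h. KRT10 was at 365, 387, 368 and 382 CPM, at most 1.06 times its 0 h level. KRT23 was at 57.3, 71.6, 72.2 and 66.1 CPM, with log2 changes of 0.32, 0.33 and 0.20. Its share of thinned cells with a UMI was 44.2% (41.5% to 46.9%) at 0 h and 51.4% (47.1% to 55.8%) at 8 h, or 53.6% and 61.7% without thinning. KRT17 had 67, 69, 80 and 24 UMIs and KRT81 had 64, 46, 38 and 17, with no level above 2.70 CPM for either. A KRT5 UMI was found in 0 of 1331, 1082, 1231 and 519 thinned cells at 0, 2, 4 and 8 h, which, with 3 cells as the limit that a count of 0 allows, leaves room for a share of cells with a UMI of up to 0.225%, 0.277%, 0.244% and 0.578%.

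KRT13 was rare in T-47D, but its level was different in the last pool. It had 31, 42, 77 and 68 UMIs at 0, 2, 4 and 8 h, or 0.934 (0.635 to 1.33), 1.58, 2.60 and 5.26 CPM (4.08 to 6.67). The 8 h level was 5.63 times that at 0 h (3.63 to 8.91), under the minimum for the fold rule. Thinned cells with a KRT13 UMI made up 0.826% (0.413% to 1.47%) at 0 h and 4.62% (2.98% to 6.80%) at 8 h, or 1.18% and 6.69% without thinning. Without thinning, 18 of 1525 cells had a KRT13 UMI at 0 h and 37 of 553 at 8 h. The top 1% of cells, 16 and 6 cells, held 93.5% and 36.8% of the UMIs. With so few cells carrying KRT13, these shares do not measure how concentrated it was. KRT15, a type I keratin of basal cells that lies between KRT13 and KRT19 (chr17:41513745-41518890), rose in T-47D from 8.05 CPM to 16.1, 19.3 and 20.7 CPM, with log2 changes of 0.91, 1.17 and 1.26. It is not one of the 10 genes and is named by the rule for other keratins of at least 10 CPM. KRT15 was at 0.653 CPM in the Ishikawa 0 h pool. Further along the cluster, KRT14 had at most 1 UMI per T-47D pool and KRT16 at most 1.92 CPM.

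In Ishikawa the basal keratins KRT5 and KRT17 fell at 8 h. KRT17 was at 486, 440, 453 and 302 CPM, so the 2 h and 4 h levels lay within 10% of 0 h and the 8 h level at 0.622 of it (0.603 to 0.641, log2 change -0.68). KRT5 was at 28.3, 26.6, 20.6 and 14.3 CPM, at 0.728 (0.634 to 0.836) of the 0 h level at 4 h and at 0.505 (0.442 to 0.578, log2 change -0.94) at 8 h. At 2 h KRT17 was at 0.906 of the 0 h level (0.880 to 0.932) and KRT5 at 0.941 (0.836 to 1.06). All these intervals leave out the spread between cells, so they are too narrow, at 8 h as well. That spread was large for KRT17 (CV 2.19 at 0 h and 2.48 at 2 h) and for KRT5 (4.57 and 3.35). Whether either gene differed at 2 h cannot be told from them. At 8 h, 2 of the 7 keratins above the minimum had changed, where 1.28% of all 7885 genes tested had. At 2 h and at 4 h it was 0 of 7, with backgrounds of 1.45% and 1.26%. The KRT5 change lay at percentile 0.0634 of all genes tested at 8 h and that of KRT17 at percentile 0.304. In the cells with under 1% GFP UMIs the log2 changes at 8 h were -1.07 for KRT5 and -0.80 for KRT17. Over every called cell, without the limits that removed most cells of the 0 h pool, they were -0.97 and -0.65.

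KRT17 was concentrated in few cells, and the share of such cells was lower at 8 h. At equal depth 56.8% (53.0% to 60.6%) of 676 Ishikawa cells had a KRT17 UMI at 0 h, 50.5% at 2 h, 55.1% at 4 h and 45.8% (43.1% to 48.5%) of 1336 at 8 h. Without thinning the shares were 61.2%, 56.4%, 62.1% and 53.4%. Cells with 20 or more KRT17 UMIs made up 10.4% (8.16% to 12.9%), 8.58%, 9.46% (7.56% to 11.7%) and 5.09% (3.97% to 6.41%). At 0 h these 70 cells held 61.6% of the KRT17 UMIs of the pool. The mean over all thinned cells was 6.40 UMIs at 0 h and 3.76 at 8 h, and 77.3% of that difference came from the cells with 20 or more. A lower level in every cell would also move cells under 20. This share therefore does not separate fewer high cells from less KRT17 per cell. Among cells with any KRT17, the mean was 11.3 UMIs at 0 h and 8.22 at 8 h. That mean includes the cells with 20 or more UMIs, so it does not separate the 2 either.

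KRT5 was rarer still. It was detected in 12.9% (10.4% to 15.6%), 15.6%, 12.8% and 8.61% (7.16% to 10.2%) of thinned Ishikawa cells, and in 16.2%, 19.2%, 15.9% and 12.1% without thinning. Most of these had a single UMI, and 12 of 676 cells at 0 h and 6 of 1336 at 8 h had 5 or more. Those 12 cells held 50.4% of KRT5 UMIs at 0 h, so the KRT5 level in that pool rests on few cells. Cells with 5 or more UMIs gave 76.8% of the difference in mean KRT5 between 0 h and 8 h. Between 0 h and 4 h the same measure was 130%, so it is unstable here and has the limit given for KRT17. At 2 h more cells had a KRT5 UMI than at 0 h but each held fewer, with means of 2.14 and 2.64 UMIs in cells with a UMI. No cell type without keratins was in these libraries, so the share of cells that free RNA alone would give was not measured.

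**Figure D4:**
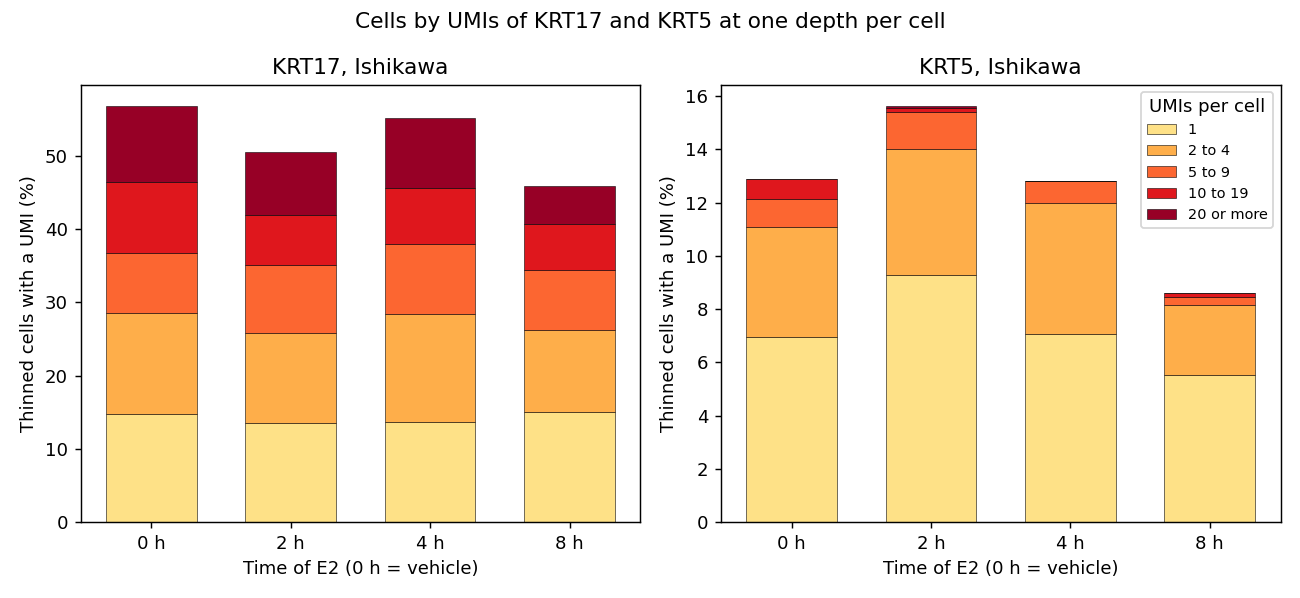
Share of thinned Ishikawa cells (%) with UMIs of KRT17 (left) and KRT5 (right) at each time point, stacked by UMIs per cell; every cell counts at a depth of 12539 UMIs. The darkest KRT17 block, cells with 20 or more UMIs, is 10.4% at 0 h and 5.09% at 8 h, and the KRT5 bar is 12.9% at 0 h and 8.61% at 8 h.

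The simple-epithelial keratins of Ishikawa did not pass the limit at any time. KRT18 was at 2004, 2029, 1662 and 1660 CPM, with log2 changes of 0.02, -0.27 and -0.27. KRT8 was at 1737, 1768, 1541 and 1420 CPM, with log2 changes of 0.03, -0.17 and -0.29. The log2 changes of the pair had the opposite sign to those in T-47D at 4 h and 8 h. Over every called cell the Ishikawa changes at 4 h and 8 h were -0.14 and -0.12 for KRT18 and -0.09 and -0.16 for KRT8. The CV of KRT18 was 0.832 at 0 h and 0.777 at 8 h. KRT19 was at 415, 464, 456 and 406 CPM, KRT10 at 254, 252, 271 and 258 CPM and KRT7 at 83.9, 85.8, 89.1 and 76.4 CPM. KRT17 was above KRT19 at 0 h and below it at 2 h and 8 h, and at 4 h their intervals (443 to 462 and 447 to 466 CPM) overlapped. KRT7 was detected in 52.4%, 55.6%, 61.2% and 52.6% of thinned cells (66.4% to 74.6% without thinning). KRT23, just under the minimum, was at 10.0, 9.74, 8.68 and 7.36 CPM. KRT13 had 17, 41, 21 and 74 UMIs and KRT81 had 30, 25, 15 and 41, no level above 2.39 CPM.

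Keratins varied between cells more than most genes of their level. For each gene the CV at 0 h was compared with the trend of CV on mean over all genes, and the top 20% within a bin of similar mean were called High noise. Of the 9 keratins that could be placed in each line, 8 were High noise in Ishikawa and 8 in T-47D, and KRT10 was Medium in both. In Ishikawa, KRT5 (CV 4.57) had the residual ranked 19 of 12781 genes and KRT17 (CV 2.19) the residual ranked 24. The CV of KRT8 was 0.847 in Ishikawa and 0.575 in T-47D, and that of KRT18 was 0.832 and 0.564. KRT10 had CVs of 0.603 and 0.491. Cells of a pool share a library and are not replicates, so these values describe the pools. In T-47D the highest residual among the keratins was that of KRT81, ranked 29 of 12066. It had 64 UMIs in 29 of 1525 cells, so the 79.7% held by the top 1% of cells rests on few counts.

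Across cells, KRT8 and KRT18 were the closest pair. Spearman's rho between their thinned counts was 0.78 over 676 Ishikawa cells and 0.74 over 1331 T-47D cells at 0 h, and 0.71 and 0.79 at 8 h. Among the genes of at least 50 CPM (2748 in Ishikawa and 2655 in T-47D), each was the other's highest correlate in both lines. KRT19 had KRT8 and KRT18 as its highest correlates in both lines, with rho of 0.40 and 0.34 in the 0 h Ishikawa cells. In T-47D both were 0.45 at 0 h, and 0.55 and 0.56 at 8 h. The median rho of KRT8 with all candidates was 0.04 in Ishikawa and 0.02 in T-47D. These are descriptions across cells of 1 library with no p.

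KRT10 had low rho with the other keratins, from -0.05 to 0.04 in Ishikawa and from -0.03 to 0.12 in T-47D at 0 h. KRT23 in T-47D was as low, from -0.08 (with KRT8) to 0.12 (with KRT19). At 2 h in T-47D, rho of KRT10 was 0.20 with KRT19, 0.17 with KRT23 and 0.16 with KRT18. Its highest correlates were EIF1 (0.24), a translation initiation factor, in Ishikawa and RPL19 (0.30), a ribosomal protein, in T-47D. KRT7 had S100A6, a calcium-binding protein, as its highest correlate in both lines, with rho of 0.27 for Ishikawa and 0.41 for T-47D, followed by S100A10 (0.26) and CFL1 (0.25) in Ishikawa and by RAC1 (0.39) and S100A11 (0.37) in T-47D. KRT17 in Ishikawa went with CALD1 (0.40), TPM1 (0.38) and ACTN1 (0.38), which encode the actin-binding proteins caldesmon, tropomyosin and α-actinin. The rho of KRT17 with CALD1 was between 0.33 and 0.41 at the 4 time points. For KRT5 and for KRT23 in T-47D, the highest rho was 0.22 (with PPIA) and 0.17 (with RPSA), weak values in sparse counts.

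**Figure D5:**
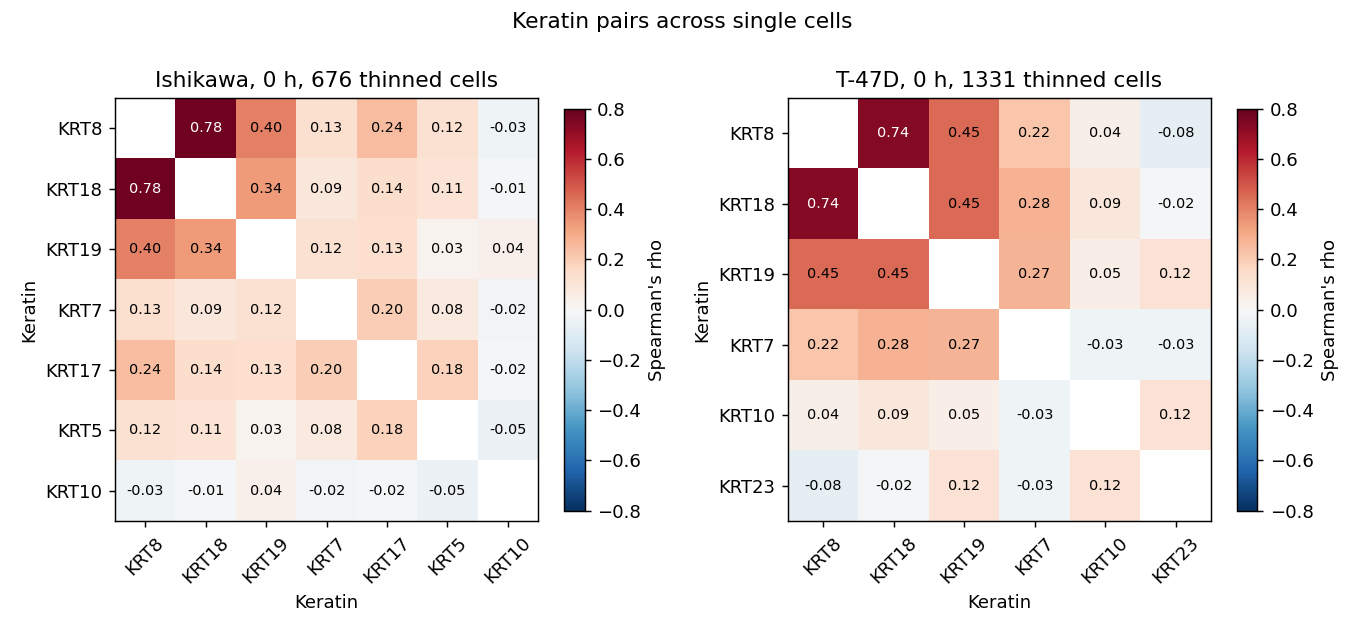
Spearman's rho between keratins across thinned 0 h cells, 676 of Ishikawa (left) and 1331 of T-47D (right), for members with a mean of at least 10 CPM. KRT8 with KRT18 is the strongest pair in both lines (0.78 and 0.74), KRT19 follows, and the KRT10 row lies near 0.

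Ishikawa cells with KRT5 carried KRT17 more often than cells without it at 0 h and 4 h, beyond counting error. Of the 87 thinned 0 h cells with a KRT5 UMI, 77.0% (66.8% to 85.4%) had KRT17, against 53.8% (49.7% to 57.9%) of the 589 cells without KRT5. The mean KRT17 count was 11.2 UMIs in the first and 5.70 in the second. At 4 h the shares were 67.3% (57.5% to 76.0%) and 53.3% (49.6% to 57.0%). At 2 h they were 55.4% and 49.6%, and at 8 h 52.2% (42.7% to 61.6%) and 45.2% (42.4% to 48.0%), with overlapping intervals. KRT5 went with other keratins too. At 0 h KRT7 was found in 66.7% (55.7% to 76.4%) of cells with KRT5 and in 50.3% (46.1% to 54.4%) of the others. Mean KRT8 was 26.9 and 21.4 UMIs, and mean KRT10 2.83 and 3.22. At 0, 2, 4 and 8 h rho of KRT5 was 0.12, 0.12, 0.17 and 0.09 with KRT8. With KRT17 it was 0.18, 0.06, 0.11 and 0.05, so KRT17 was not its closest keratin after 0 h. KRT7 also went with KRT17: of the 384 cells with a KRT17 UMI at 0 h, 59.4% (54.3% to 64.3%) had KRT7, against 43.2% (37.4% to 49.0%) of the 292 without, and at 8 h the shares were 60.9% and 45.6%.

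Transcripts of the proteins that anchor keratin filaments had medians near 0. Of 22 desmosome and linker genes, 14 passed the minimum in Ishikawa and 13 in T-47D. In Ishikawa at 8 h, 1 of the 14 was past 1.5-fold (background 1.28%), DSC2, a desmosomal cadherin, which fell from 38.2 to 23.9 CPM (log2 change -0.65). No other list member passed the limit at any time in either line. DSP, which encodes desmoplakin and was the most abundant, was at 319, 271, 259 and 243 CPM in Ishikawa and at 536, 509, 499 and 438 CPM in T-47D. Its log2 changes in Ishikawa were -0.23, -0.30 and -0.39. The list's median log2 change at 8 h was -0.06 in Ishikawa and -0.04 in T-47D, against 0.00 and 0.01 over all genes tested. Of 16 other intermediate filament genes, 6 and 4 passed the minimum and 0 of them changed, the most abundant being LMNA (lamin A/C) at 253 CPM in Ishikawa and 452 CPM in T-47D at 0 h.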

How the data were processed

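The deposited matrices hold counts of UMIs per gene and cell barcode, which the authors made with Cell Ranger 3.1.0 against hg38, per the submitters' processing notes, and a deposited table assigns barcodes to time points or calls them doublets by their MULTI-seq tags. Barcodes called doublets or not called were excluded, pairs from 1 time point cannot be seen by tags, and no further caller was run. Kept cells met the study's limits (Ishikawa 8500 to 35000 UMIs, 2700 to 6000 genes, under 7% mitochondrial; T-47D 7500 to 40000 UMIs, 1500 to 6000 genes, under 20%). UMIs were summed per pool and scaled to CPM. A change is log2((CPM + 1)/(CPM at 0 h + 1)), which understates low genes, and its interval is that of the plain ratio. Intervals were exact Poisson (CPM), Clopper-Pearson (shares) and the conditional binomial (ratios). PCR and cultures add error that these do not cover, and the CPM and ratio intervals also leave out the spread between cells. The floor is 3 UMIs per pool. The GFP and tdTomato features were not tested. Noise residuals came from mgcv 1.9.3 (log2(CV + 1) on log10 mean, genes with a log-normalised mean above 0.01). Alternative scalings used edgeR 4.0.16 and DESeq2 1.42.0 factors only. Scripts were tested on simulated data. Sequences and positions are from RefSeq tables on GRCh38.p14, which match the files' build. Named besides the 10 genes were other keratins of at least 10 CPM, each list's most abundant gene and those past the rule (up to 3 each way), and the 3 closest correlates of members of at least 20 CPM. The members and lists were chosen with earlier results of these data known. The MULTI-seq barcode libraries were not used here. A gene of the luminal list past the rule is not reported here.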

Additional observations from a re-analysis of the deposited data

Results flagged for a closer look

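KRT8 and KRT18 moved in opposite directions in the 2 lines at 4 h and at 8 h, with counting intervals on either side of no change in both. The log2 change of KRT8 at 4 h was -0.17 in Ishikawa and 0.51 in T-47D, a difference of 0.69, and at 8 h it was -0.29 and 0.72, a difference of 1.01. For KRT18 the differences were 0.86 at 4 h (-0.27 and 0.59) and 0.75 at 8 h (-0.27 and 0.48). The Ishikawa changes were under the 1.5-fold limit, and over every called cell they were smaller, at -0.09 and -0.16 for KRT8 and -0.14 and -0.12 for KRT18 at 4 h and 8 h. No pool has a replicate, so these differences were not tested.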

How the results depend on the processing

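The number of keratins past the fold rule was within 1.5 times the reported count under 2 other scalings (TMM and median-of-ratios factors), totals without the reporters and mitochondrial genes, means over cells, thinned sums, all called cells (Ishikawa only, since all called T-47D cells were kept), an upper limit of 1.5 times the median UMIs, Ishikawa cells with under 1% GFP UMIs, and pseudocounts of 0.1 and 5. It moved with the rule itself. At a looser fold limit (25% higher, or as far down on the log scale) it was 1 in Ishikawa at 4 h (0 as reported) and, for T-47D, 3 at 2 h, 4 at 4 h and 4 at 8 h (0, 2 and 1). At 2-fold it was 0 in Ishikawa at 8 h (2 as reported), and 0 at both 4 h and 8 h of T-47D. With no minimum it was 1 in Ishikawa at 2 h and at 4 h, both times KRT81, and 2 in T-47D at 8 h, KRT13 being added, and with a minimum of 50 CPM it was 1 in Ishikawa at 8 h, KRT5 being under it. No change past the rule reversed its sign under the alternatives run. Recomputed log2 changes of single keratins left their counting interval in 62 cases and stayed in 310. With every called cell, 14 left it, all of them in Ishikawa (among them KRT8 and KRT18, given above), and 25 stayed. Those 25 include every T-47D change, which could not move because the cells were the same. Shares of cells left theirs in 43 cases, 29 of them without thinning, and stayed in 141. CVs moved by over 10% in 9 cases and by less in 37, and rho by 0.05 or more in 10 and by less in 83. With every called cell 5 CVs moved, all in Ishikawa, and 8 did not, among them every T-47D CV, which could not move. With no replicate pools, leaving out a replicate could not be done, and differences between cultures cannot be told apart from E2. No paired analysis was possible because the result comes from no test.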

Other observations

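Outside the keratins, genes of basal and squamous epithelium had a lower median in Ishikawa at 8 h, when KRT5 and KRT17 had fallen. Of 24 such genes, 10 passed the minimum, with a median log2 change of -0.35 against 0.00 over all genes tested, and 2 of the 10 were past 1.5-fold (1.28% of all genes tested were). Of the 10, 8 had a negative change, and ITGA6 (0.14) and CDH3 (0.13), named after their values were seen, a positive one. ITGB4, the integrin β4 of hemidesmosomes, fell from 56.9 to 32.1 CPM (log2 change -0.81), and SFN, which encodes 14-3-3σ, from 64.0 to 39.9 CPM (-0.67). KLF5, an epithelial transcription factor, was past the limit at 2 h at 28.4 CPM (-0.66). The most abundant of the list, LAMB3, a laminin chain, was at 94.6 CPM at 0 h and 88.4 CPM at 8 h. In T-47D, 5 of the 24 passed the minimum and 0 changed at any time, the most abundant being SFN, at 87.2 CPM at 0 h and 102 CPM at 8 h.

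Among 16 luminal epithelial genes, ELF3, an epithelial transcription factor, rose in Ishikawa at 2 h from 66.2 to 147 CPM and was at 69.4 CPM at 8 h. AGR2, a protein disulfide isomerase, fell in Ishikawa at 8 h from 22.0 to 13.0 CPM (-0.71). In T-47D, XBP1, a factor of the unfolded protein response, rose from 356 to 843, 717 and 731 CPM, and GRHL2, a grainyhead factor, rose at 8 h from 23.9 to 38.8 CPM. The list's median log2 change at 8 h was 0.00 in Ishikawa, where 10 genes passed the minimum, and -0.12 in T-47D, where all 16 did.

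Of the other 45 keratin genes, KRT80, a type II keratin, was above the minimum in both lines. It was at 79.5, 69.6, 72.1 and 69.9 CPM in Ishikawa and at 53.0, 48.7, 37.9 and 41.6 CPM in T-47D, with no change past the limit. KRT86, the hair keratin whose span contains KRT81, was at 12.4, 14.5, 11.8 and 9.90 CPM in T-47D. In the same T-47D pools KRT81 had at most 1.93 CPM.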
